A study of Homo sapiens with 24 samples.

Results

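Beta cell disallowed genes are genes that most tissues use and that beta cells normally keep at a very low level. The 8 members described here, LDHA, SLC16A1, HK1, REST, ACOT7, OAT, MGLL and PDGFRA, were taken by name and are 8 of the 20020 protein-coding genes of GENCODE release 44. Each gene was given every H3K4me3 region found within 2 kb of an annotated transcription start site of that gene, up- or downstream, and its main value comes from whichever of these regions had the most counts. H3K4me3, trimethylated lysine of histone H3 that marks promoters, was profiled by MINT-ChIP, in which chromatin of all samples is barcoded, pooled and then immunoprecipitated together. There are 8 such samples of EndoC-βH3, each of 500000 cells, 4 of them non-senescent and 4 senescent. EndoC-βH3 is a single human beta-cell line from fetal pancreas, immortalised with hTERT and SV40 large T-antigen and labelled wild type (WT) in both groups. The non-senescent samples are controls that keep these transgenes, and in the senescent samples CreER was activated with 4-hydroxytamoxifen (4-OHT) for 3 weeks to remove them, at 1 μM in the methods and 1 mM in the sample labels. The value used for each region is the authors' mean over samples, in which both states are pooled, so the state of the cells, the spread between replicates and the depth of each sample do not enter any value below. Differences between promoters are therefore given as sizes, with no replicate error and no test, and a change with senescence is not analysed here.

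A beta cell couples glucose to insulin release by sending almost all pyruvate into the mitochondria. Low lactate dehydrogenase A (LDHA) and low monocarboxylate transporter 1 (SLC16A1) keep pyruvate from leaving as lactate, and they keep outside lactate and pyruvate from triggering insulin release. Hexokinase 1 (HK1), an enzyme with a high affinity for glucose, is kept low so that insulin is not released at low glucose. The other members serve different processes: REST represses neuronal and endocrine genes, ACOT7 splits fatty acyl-CoA, OAT is a mitochondrial aminotransferase of ornithine, MGLL breaks down monoacylglycerol, and PDGFRA is a receptor for platelet-derived growth factors. A promoter in use usually carries H3K4me3 on the nucleosomes around its start site, while weak or absent H3K4me3 is usual at silent genes.

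Each of the 8 members had at least 1 H3K4me3 region, where 75.3% of all protein-coding genes had one (15085 of 20020). Their strongest regions were mostly weak, with a median of 20.1 mean normalized counts against 49.2 over all genes with a region. Divided by region length, the median was 11.4 counts per kb against 19.0. The level per kb depends on region width too, and a narrow region can rank high with few counts, as for REST below. REST and MGLL lay at or above the median promoter and the other 6 members below it, where by construction 50.0% of genes lie at or above it. Of the strongest regions, that of MGLL was shared with another gene and, as described below, lies far from the usual MGLL promoter.

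The sequences upstream of 5 members are given first, since they differ in whether an H3K4me3 region covers them. They come from RefSeq (GRCh38.p14, matched by symbol for 6 of the 8 members and identical to hg38) and cover the part before the RefSeq start site that no annotated exon touches, 5′ to 3′ on the strand of the gene. LDHA lies at chr11:18394313-18394559 and REST at chr4:56907650-56907875, both on the plus strand, and both sequences lie wholly inside an H3K4me3 region. OAT lies at chr10:124418977-124419173 on the minus strand, at the edge of its weaker region. HK1 at chr10:69269750-69269983 and PDGFRA at chr4:54229043-54229279, both on the plus strand, overlap no region. The HK1 sequence belongs to an upstream alternative start, whereas the H3K4me3 regions of HK1 lie at the promoter of its canonical transcript. Capitals mark matches on either strand to the motifs searched. These were the E-box, CACGTG. Its inner part was searched as ACGTG. The GC box was searched as GGGCGG. The CCAAT box and the TATA box, searched as TATAAA, complete the set.
LDHA: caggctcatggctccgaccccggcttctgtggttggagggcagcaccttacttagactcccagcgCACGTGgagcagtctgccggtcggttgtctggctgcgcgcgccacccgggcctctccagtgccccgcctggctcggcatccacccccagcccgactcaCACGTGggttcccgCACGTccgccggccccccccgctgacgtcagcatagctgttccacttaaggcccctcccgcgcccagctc
REST: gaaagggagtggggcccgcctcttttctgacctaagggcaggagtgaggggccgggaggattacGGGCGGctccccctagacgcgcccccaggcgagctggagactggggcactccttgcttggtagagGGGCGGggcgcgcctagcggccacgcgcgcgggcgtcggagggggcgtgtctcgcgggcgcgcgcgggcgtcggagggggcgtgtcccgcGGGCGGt
OAT: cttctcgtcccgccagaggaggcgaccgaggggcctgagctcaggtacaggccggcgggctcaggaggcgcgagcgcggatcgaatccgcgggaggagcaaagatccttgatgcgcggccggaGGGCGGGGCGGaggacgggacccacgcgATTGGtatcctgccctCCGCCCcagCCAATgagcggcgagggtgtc
HK1: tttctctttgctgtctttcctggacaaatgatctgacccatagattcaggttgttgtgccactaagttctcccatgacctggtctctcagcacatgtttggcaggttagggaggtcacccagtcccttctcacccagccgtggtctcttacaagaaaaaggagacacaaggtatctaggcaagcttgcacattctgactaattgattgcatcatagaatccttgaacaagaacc
PDGFRA: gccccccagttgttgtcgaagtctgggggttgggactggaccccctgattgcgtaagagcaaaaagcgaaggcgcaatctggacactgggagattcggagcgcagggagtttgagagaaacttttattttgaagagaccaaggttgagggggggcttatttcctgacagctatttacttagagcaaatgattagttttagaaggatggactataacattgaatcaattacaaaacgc

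The window of 300 bases from 250 before to 50 after the RefSeq start held 29 CpG dinucleotides in LDHA, 44 in REST, 31 in ACOT7, 33 in OAT, 8 in PDGFRA and 1 in HK1, against a median of 22.0 over 15345 promoters. LDHA had 2 matches to CACGTG, a motif found in 8.89% of these promoters, and 1 further match to ACGTG, which lies inside every CACGTG and is found in 23.8%. GGGCGG, found in 59.2%, occurred 3 times in REST and 4 times each in ACOT7 and OAT. OAT had 2 matches to CCAAT and ACOT7 had 1, and 36.6% of promoters hold one. TATAAA, found in 9.63%, was in the window of no matched member. HK1 and PDGFRA, the members with the fewest CpG dinucleotides in this window, held no match to any of the 5 motifs. For HK1 this describes the upstream alternative start only. Around its canonical start site, 500 bases had a GC content of 76.2%, and motifs were not searched there.

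**Figure D1:**
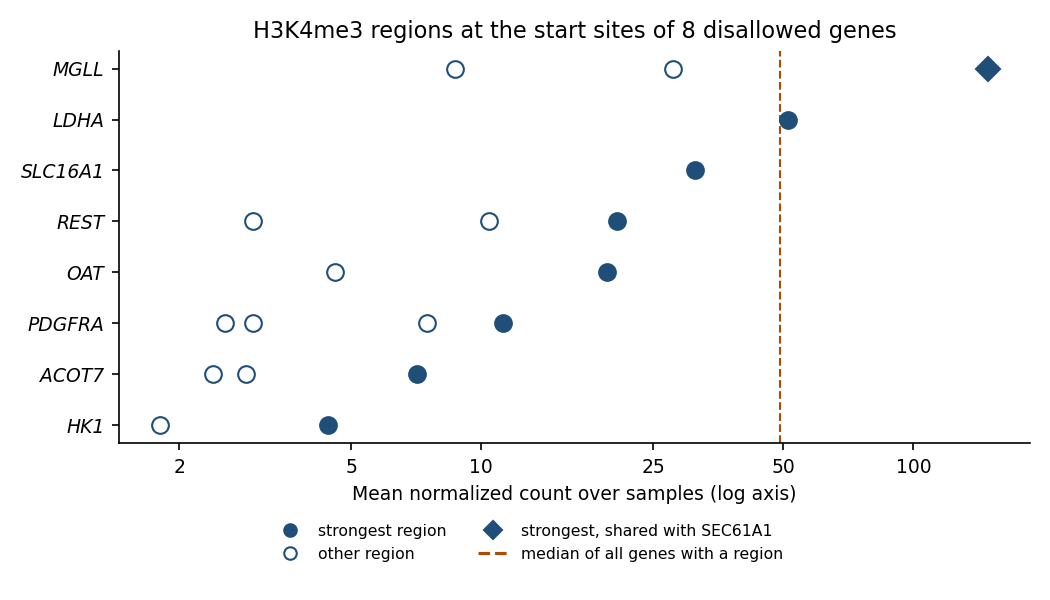
Mean normalized count over samples (log axis) of each of the 19 H3K4me3 regions of the 8 members, 1 row per gene. Filled points are the strongest region of a gene, the diamond is the MGLL region shared with SEC61A1, and the dashed line is the median of 49.2 over all genes with a region; LDHA and MGLL lie to its right.

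LDHA, which turns pyruvate into lactate, had 1 region of 51.3 mean normalized counts over 3135 bp (chr11:18393933-18397068, hg38). This is 16.4 counts per kb, at percentile 39.5 of the 15085 genes. The region runs from 630 bp before to 2505 bp after the canonical start site, covers exons 1 and 2 of 8, and holds 10 of the 14 annotated start sites. Among the 7 members whose strongest region was not shared with another gene, LDHA had the highest count. LDHB, the isoenzyme that favours lactate oxidation, had 119 mean normalized counts and 36.8 counts per kb, 2.25 times the level per kb of LDHA, in a region linked to another gene as well. LDHC, the testis isoenzyme, and LDHD, a mitochondrial D-lactate dehydrogenase, had no region in their windows.

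SLC16A1, the carrier that moves lactate and pyruvate across the plasma membrane, also had a single region over its start site, with 31.2 mean normalized counts over 2360 bp (chr1:112954617-112956977). At 13.2 counts per kb it stood at percentile 28.0. The region covers exon 1 of 5 and holds 5 of 9 start sites. Of 6 other carriers of the family, 4 had a region. SLC16A7 (MCT2) was highest at 21.8 counts per kb, SLC16A6 had 16.4, SLC16A5 had 7.56, SLC16A3 (MCT4, the lactate exporter of glycolytic cells) had 7.46, and SLC16A4 and SLC16A8 had none. SLC16A1 thus lay below SLC16A6 and above SLC16A5 in this family. In the 11 genes of mitochondrial pyruvate use, which include both subunits of the mitochondrial pyruvate carrier and the malate dehydrogenases, every gene had a region and the median was 26.3 counts per kb. MDH2 was the highest of them at 44.8 counts per kb, MPC2 had 44.1 and MPC1 had 43.3, while PC, the pyruvate carboxylase, was the lowest at 10.3. The regions of MDH2, MPC2 and SLC16A6 also hold or adjoin start sites of another gene, so their signal cannot be told apart from that gene's.

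HK1 had the weakest main region of the 8 members. Its 4.41 mean normalized counts lie over 785 bp (chr10:69318725-69319510), which is 5.62 counts per kb at percentile 4.75. A second region of 1.81 counts lies 408 bp upstream of the canonical start site. The HK1 gene has 25 annotated start sites, and 11 of them lie in one of these 2 regions, all at the promoter of the canonical transcript. The RefSeq start printed above is one of the upstream alternatives, and it lies in no region. HK2, the related hexokinase of muscle and fat, had a region of 5.59 counts and 11.2 counts per kb, and HK3 and HKDC1 had none. The GC content of the HK1 region was 70.6%, at percentile 99.5 of the strongest regions. Among strongest regions in the same decile of GC content its level per kb stood at percentile 12.9.

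REST, the repressor of neuronal genes, had 3 regions. The strongest held 20.6 mean normalized counts over 801 bp (chr4:56907095-56907896), and its 25.7 counts per kb put it at percentile 71.7. It is a narrow region, at percentile 11.5 of widths, and without division by length REST stood at percentile 24.3. It ends 4 bp before the canonical start site. The second region, with 10.4 counts, begins 1144 bp after that site in intron 1, and the third, with 2.97 counts, begins 2637 bp after it. The 1147 bp between the first and the second region have a GC content of 76.0%. All 7 genes listed as corepressors of REST had a region, with a median of 30.0 counts per kb, from CTDSP1 at 10.3 to EHMT2 at 79.7, whose region is shared with another gene. Of 12 neuronal or secretory genes that REST is known to repress, all had a region with a median of 18.1 counts per kb. Those at the upper end were STMN2 (32.9 counts per kb), CHRNB2 (30.8), SCG3 (29.4) and SNAP25 (28.4), the last a SNARE protein of granule release, and the lowest were CPLX1 (5.67) and GRIN1 (2.05).

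ACOT7 had 3 weak regions, the strongest with 7.09 mean normalized counts over 745 bp (chr1:6393843-6394588). At 9.51 counts per kb it stood at percentile 15.2. The region ends 76 bp before the canonical start site, and a region of 2.39 counts lies in intron 1 from 873 bp after it. The third, with 2.86 counts, lies farther into intron 1 beside an alternative start site, and not 1 of the 7 ACOT7 start sites was inside a region. Of 9 other acyl-CoA thioesterases 8 had a region, from ACOT11 at 4.52 counts per kb to ACOT13 at 28.9, with a median of 12.3, and the ACOT13 region is shared with another gene.

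OAT had a region of 19.5 mean normalized counts over 2175 bp in intron 1 (chr10:124416290-124418465) and one of 4.59 counts upstream (chr10:124419131-124419675). Their levels were alike per kb, at 8.99 and 8.44, and the stronger region stood at percentile 13.6. The canonical start site lies between them, 458 bp from the first and 208 bp from the second, in a stretch of 665 bp with a GC content of 74.1%. The region in intron 1 has a GC content of 45.3%, and among strongest regions in the same decile of GC content it stood at percentile 6.56. These deciles are of the region's own GC content and leave out the GC-rich stretch at the start site. The other 6 genes of ornithine metabolism with a region had a median of 16.4 counts per kb, from PYCR1 at 7.59 to AZIN1 at 21.8 (a region shared with another gene), and ARG1, the liver arginase, had none.

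MGLL had the highest main value, 149 mean normalized counts over 5087 bp (chr3:128050749-128055836), 29.3 counts per kb at percentile 81.0. This region does not lie at the usual MGLL promoter. It holds the start of 1 MGLL transcript, annotated as a target of nonsense-mediated decay, 230 kb upstream of the canonical start site. It also holds 10 start sites of SEC61A1, which encodes a subunit of the channel for secretory proteins in the endoplasmic reticulum, its canonical site included, and the signal of the 2 genes cannot be told apart there. At the canonical MGLL start site lay a region of 27.7 mean normalized counts over 3417 bp (chr3:127820466-127823883), covering exons 1 and 2 of 8. Its 8.12 counts per kb exceeded the main value of 10.9% of genes or equalled it. A region in intron 2 had 8.70 counts. With the canonical region taken for MGLL, REST would be the single member at or above the median promoter. Of 8 other genes of endocannabinoid turnover, 7 had a region with a median of 15.2 counts per kb, and the lipases DAGLA, DAGLB and ABHD6 had 15.2, 20.2 and 13.0. ABHD12 was highest at 31.9 in a region shared with another gene, CNR1 was lowest at 9.46, and CNR2 had no region.

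PDGFRA had 4 regions, more than any other member, and all were weak. The strongest held 11.2 mean normalized counts over 1368 bp (chr4:54227038-54228406), 8.16 counts per kb at percentile 11.0, and ends 887 bp before the canonical start site. A region of 7.47 counts begins 1100 bp after the site, and those of 2.97 and 2.56 counts lie farther into intron 1. Beyond the 2 kb windows, intron 1 also held a stronger region of 18.7 counts and 11.4 counts per kb. With a 5 kb window that region became the main one, and PDGFRA stood at percentile 22.8. The 1986 bp around the start site that hold no region have a GC content of 51.0%. This differs from REST, ACOT7 and OAT, where the stretch without a region was rich in GC. PDGFRB, the partner receptor, and PDGFC had no region. KIT, a receptor tyrosine kinase gene that neighbours PDGFRA, had 50.8 mean normalized counts and 13.7 counts per kb. Among the ligands, PDGFD had 20.6 counts per kb, PDGFB 10.0 and PDGFA 5.49.

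**Figure D2:**
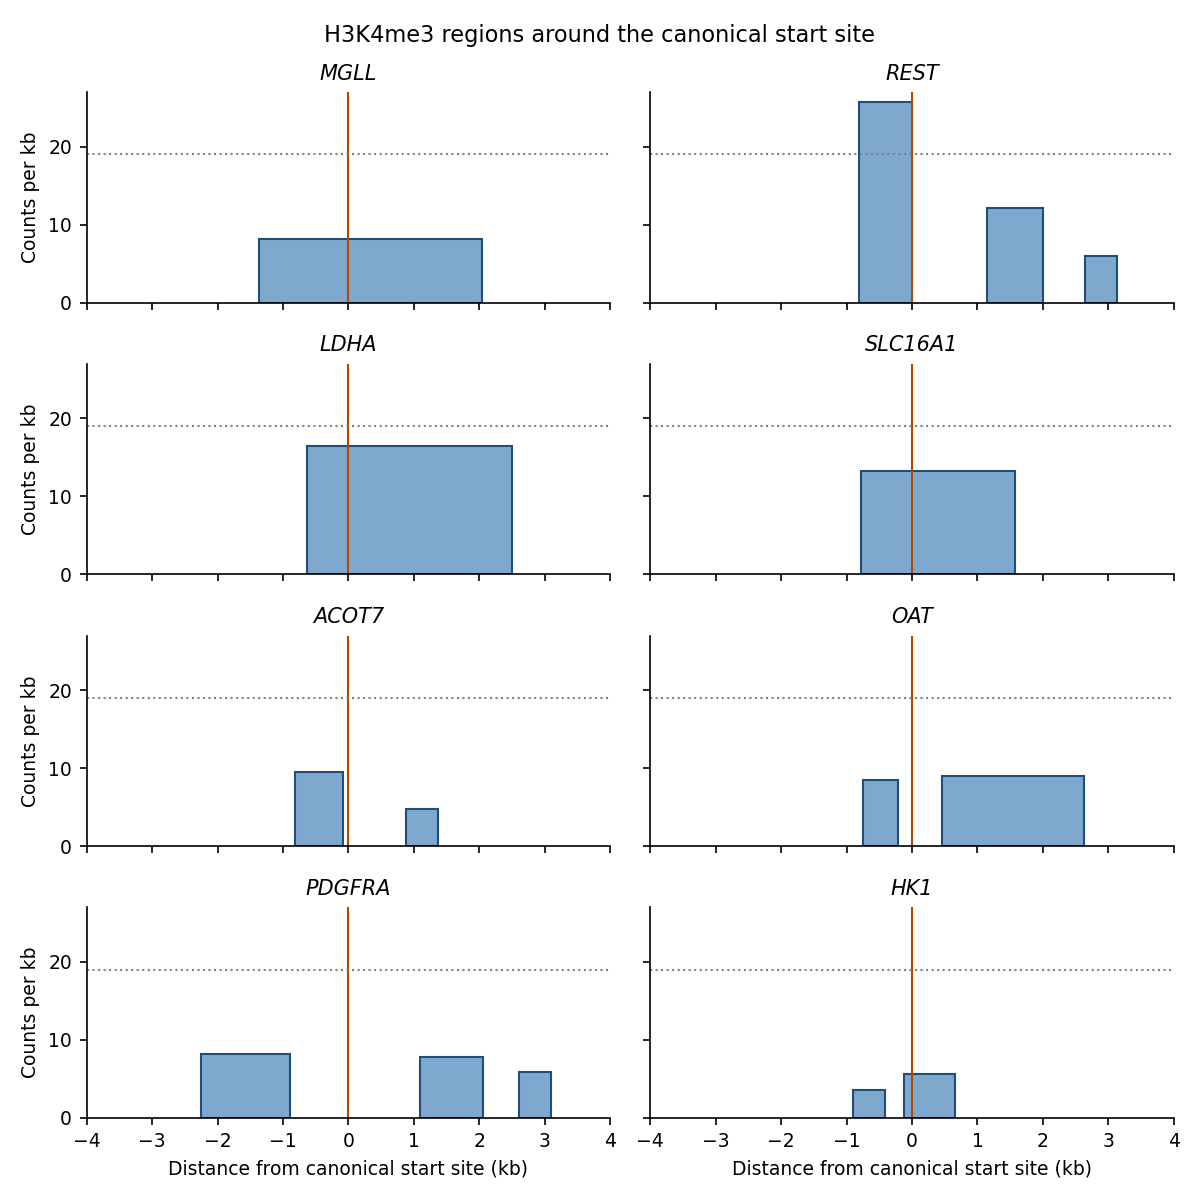
H3K4me3 regions within 4 kb of the canonical start site of each member, drawn to scale, with the distance from the start site in kb on the horizontal axis (transcription runs to the right, orange line at the site) and mean normalized counts per kb on the vertical axis. The dotted line is the median of 19.0 counts per kb over the strongest regions of all genes; REST, ACOT7, OAT and PDGFRA show a stretch without a region at the site, and the MGLL region shared with SEC61A1 and 1 weak intronic region each of MGLL, ACOT7 and PDGFRA lie outside the map.

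The canonical start site was inside a region in 4 members, LDHA, SLC16A1, HK1 and MGLL, and outside every region in the other 4, where 70.4% of all genes with a region had it inside. Across all these genes, this share moved with the GC content of the 500 bases around the start site. It was between 80.2% and 88.1% in deciles 2 to 7 of GC content, 69.5% in decile 8, 47.3% in decile 9 and 17.8% in decile 10, which begins at a GC content of 77.4%. In decile 1, the start sites poorest in GC, it was 55.6%. The start sites of OAT (72.0%), ACOT7 (72.4%) and SLC16A1 (73.2%) belong to decile 8 and those of REST (74.8%) and HK1 (76.2%) to decile 9. LDHA (69.2%) lies in decile 6, MGLL (60.2%) in decile 3 and PDGFRA (45.6%) in decile 1. The part of GC content in the weak regions of HK1, ACOT7 and OAT was not tested.

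**Figure D3:**
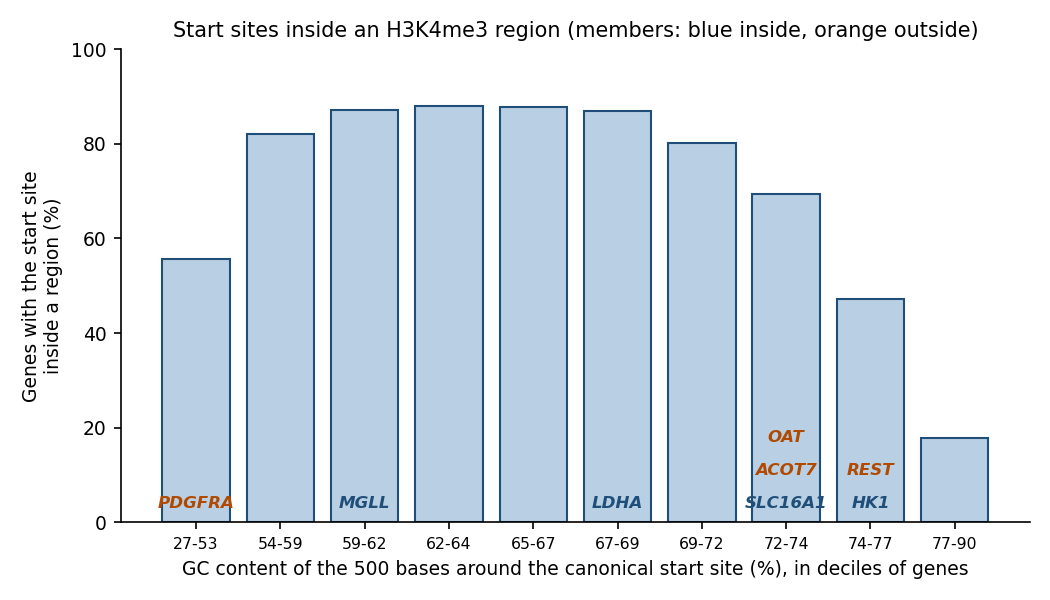
Share of genes (bars, %) whose canonical start site lies inside an H3K4me3 region, by deciles of the GC content of the 500 bases around that site (horizontal axis, %). The share falls from 88.1% in decile 4 to 17.8% in decile 10; names give the decile of each member, blue where its start site is inside a region and orange where it is outside, and their height carries no value.

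Setting the members beside each other, the order of the level per kb was MGLL, REST, LDHA, SLC16A1, ACOT7, OAT, PDGFRA and HK1, a range from 29.3 to 5.62. The level and width given here for MGLL are those of the region shared with SEC61A1. The region at the canonical MGLL start site had 8.12 counts per kb. Neighbours such as OAT (8.99) and ACOT7 (9.51) are close, and with 1 pooled value per region it cannot be said which neighbours differ beyond their spread. Region widths ran from 745 bp in ACOT7 to 5087 bp in MGLL with a median of 1772 bp, against 2492 bp over all genes. Of the 19 regions of the members, 6 are exactly 500 bp wide, as are 37.1% of all 97545 regions. LDHA and SLC16A1 had a single region each, while in the other 6 members the main region held from 46.2% (PDGFRA) to 81.0% (OAT) of the summed counts.

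A further 21 genes often listed as disallowed in beta cells were read in the same way, and 16 of them (76.2%) had a region. Their median was 13.2 counts per kb, with 3 at or above the median promoter and 13 below it. NFIB, a transcription factor, was highest at 39.2 counts per kb, followed by CAT, the catalase, at 22.2 and the chemokine gene CXCL12 at 20.0. YAP1, the effector of the Hippo pathway, was lowest at 5.08, then MGST1 at 5.31 and IGF1 at 6.59. IGFBP4, TGM2, TNS1, ARHGDIB and HSD11B1 had no region.

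Of 19 beta cell marker genes 18 had a region, with a median of 24.7 counts per kb, 156 mean normalized counts and a width of 6810 bp, against 11.4, 20.1 and 1772 bp in the 8 members. PCSK2, the prohormone convertase, had 43.9 counts per kb, and ISL1 had 38.1. Not every marker was strong per kb, with INS at 14.0 in a region shared with other genes, ABCC8 at 11.1, G6PC2 at 8.81 and IAPP at 7.56, and 7 of the 18 lay below LDHA at 16.4. MAFA had no region in its window, although the paper reports raised MAFA mRNA in the senescent cells of this line. A missing region therefore does not show that a gene is silent. Reference genes had a median of 19.0 counts per kb. Among genes that mark other cells, regions were found for 2 of 6 acinar, 4 of 5 ductal, 4 of 6 mesenchymal, 2 of 5 endothelial, 2 of 5 immune and 4 of 6 other endocrine genes. The mesenchymal genes, which accompany PDGFRA in stromal cells, had a median of 6.94 counts per kb, with COL1A1 at 6.28 and COL1A2 at 3.43, and DCN and LUM had no region. Whether RNA is made from any of these promoters was not measured by this assay.

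**Figure D4:**
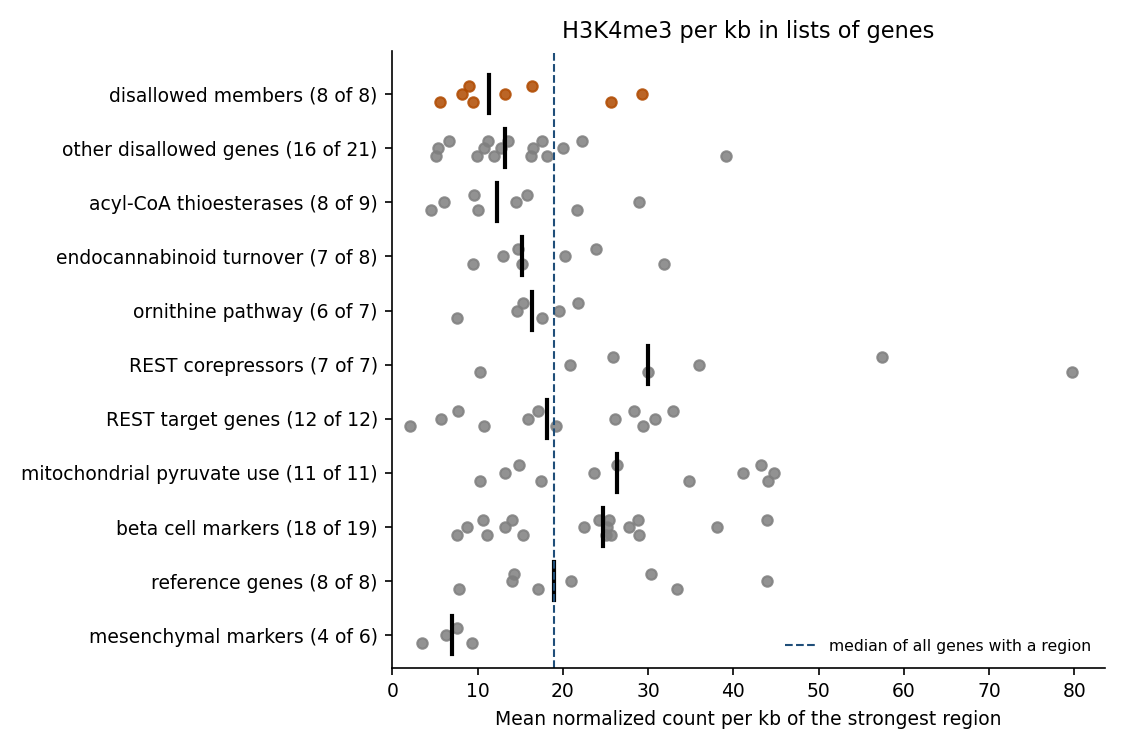
Mean normalized counts per kb of the strongest H3K4me3 region of each gene (points) in the 8 members (orange) and in 10 other lists, with the number of genes with a region in brackets. Black bars are list medians and the dashed line is the median of 19.0 over all genes with a region; the members have a median of 11.4 and the beta cell markers of 24.7. Points are spread vertically for legibility.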

How the data were processed

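H3K4me3 MINT-ChIP was compared by the authors in 4 non-senescent and 4 senescent samples; the 16 H3K27me3 and H3K9me3 samples of the series are not used here. Per the methods and the labels, the authors used Bowtie2 (hg38), samtools, HOMER for H3K4me3 peaks and DESeq2. Peak merging, read counting and the model's terms are not given in the sources used here. The deposited signal is a mean over samples of size-factor normalized counts per region, not divided by length. The same table holds the authors' fold change, its standard error, statistic, p-value and adjusted p-value, which were not used, so no state was compared and no sample left out.

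All 97545 regions lie within the hg38 chromosome lengths, and coordinates are given as deposited. Start sites came from GENCODE release 44. Percentiles are over the 15085 genes with a region, and GC content is from hg38. The linking of regions to genes was tested on simulated data. The members and gene lists were chosen with earlier results of these data known. Named are the 8 members, many of their relatives and, in many of the lists, the highest, lowest and missing genes. Some further list genes were named after their values were seen. One listed gene is not reported here. The alternatives were 11 planned ones and 1 added after seeing the data. Tools were pandas 2.3.3, numpy 2.4.6, pysam 0.24.0 and matplotlib 3.10.9 under Python 3.11.15.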

Additional observations from a re-analysis of the deposited data

How the results depend on the processing

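No paired analysis was possible because the values are means over samples with no value per sample, and for the same reason no replicate could be left out. All 8 members kept a region under the alternatives that were run, except that 6 were left with regions of at least 10 mean normalized counts, where HK1 and ACOT7 dropped out because the filter removes their regions. The median level of the members, 20.1 mean normalized counts, became 27.7 with all regions of a gene summed, 25.9 with regions of at least 10 counts and 15.9 with the region nearest to the canonical start site, an alternative chosen after seeing the data. The number of members at or above the median promoter went from 2 to 1 with summed regions, protein-coding transcripts only, the canonical start site only, counts inside the fixed window and the region nearest to the canonical start site. The member left was MGLL with summed regions (percentile 56.9) and with the fixed window (87.5), and REST in the other 3, while with counts not divided by length the 2 were LDHA and MGLL. The median percentile of the members, 21.6, was 20.6 with a 1 kb window and 26.0 with a 5 kb window. It was 24.0 with the region nearest to any start site, 23.9 with summed regions and 14.2 with protein-coding transcripts only. With the canonical start site only it was 14.1, and with regions of at least 10 counts 23.4. Counts not divided by length gave 23.8 and counts inside the fixed window 30.3. Within deciles of the region's own GC content it was 23.8, and with the region nearest to the canonical start site 18.0. The percentile of MGLL ranged from 10.6 to 92.5, since the alternatives limited to the canonical or coding starts leave out the region shared with SEC61A1, and that of REST from 24.3 to 82.9. REST fell below percentile 50 with counts not divided by its narrow width (24.3), with the fixed window (36.2) and with summed regions (43.5). SLC16A1, HK1, ACOT7, OAT and PDGFRA stayed below percentile 50 in each setting that gave a value, and LDHA in 12 of 13, between 29.9 and 51.7.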

Other observations

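Regions inside the annotated extent of a member but beyond 2 kb of its start sites were counted as well. LDHA, SLC16A1, HK1 and OAT had 0 such regions, although the HK1 gene spans 132 kb. REST had a region of 30.3 mean normalized counts over 2055 bp (chr4:56957458-56959513), against 20.6 at its promoter, but per kb it was lower, at 14.7 against 25.7. It lies past the end of the canonical transcript but inside the annotated extent of REST, and near no start site of a protein-coding gene. PDGFRA had a region of 18.7 counts in intron 1 (chr4:54233292-54234935), above the 11.2 counts of its strongest promoter region and also higher per kb, at 11.4 against 8.16, and with a 5 kb window this region took its place and raised PDGFRA to percentile 22.8. MGLL had 13 such regions with 82.8 counts in all over its 363 kb, the strongest with 15.0, and ACOT7 had 3 with 13.4 in all. The annotated extent of MGLL reaches to the start in the SEC61A1 region, 230 kb upstream of its canonical start site. Its region of 15.0 counts lies in intron 3, while those of 12.1 and 10.2 counts lie upstream of the canonical transcript.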
